A study of Mus musculus with 16 samples.

Results

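The 10 genes described here were grouped under fatty acid uptake into the heart and the making and breakdown of its stored triglyceride. They are Cd36, Slc27a1, Lpl, Fabp3, Fabp4, the retinol-binding protein gene Rbp7, Dgat1, Dgat2, Pnpla2 and Ces1d. Their probes were all non-control probes whose gene name on the array was one of these symbols or a synonym, Ces1d also being called Ces3, which gave 19 of the 41174 probes. In the heart channel, 4 or more of the 16 arrays had each of these 19 probes well above background, and the brightest probe of each gene placed all 10 genes among the 10998 genes and other transcripts tested.

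RNA came from heart ventricles of 129Sv mice. The 4 groups, with 4 biological replicates each, were CHIP-/- mice 1 week after trans-aortic banding (TAB), CHIP-/- mice 1 week after a sham operation, wild-type mice 1 week after TAB and wild-type mice 1 week after the sham operation. CHIP, encoded by Stub1, is a co-chaperone and ubiquitin ligase that sends misfolded proteins to degradation, and TAB narrows the aorta so that the left ventricle pumps against a raised pressure. Age, sex and how the CHIP-/- allele was made are not given in the sources used here. On every array 500 ng of heart RNA carried Cy5 and 500 ng of a common reference RNA, from whole neonatal mice of mixed 129Sv and C57BL/6 background, carried Cy3. A value is therefore the log2 ratio of heart over reference RNA for a probe, and it is compared between groups for the same probe, not between probes.

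The heart takes up fatty acids that lipoprotein lipase releases from circulating triglyceride at the capillary wall. They cross the endothelium and the muscle cell membrane with the help of CD36, fatty acid transport proteins and fatty acid binding proteins. Inside the cardiomyocyte they are burned in mitochondria, or are joined to glycerol by acyltransferases, kept as triglyceride in lipid droplets and freed again by lipases.

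Between 26.9% and 37.2% of spots were well above background in the heart channel, and arrays of a group correlated at 0.958 or more. Stub1 lay between -1.47 and -1.17 in CHIP-/- TAB hearts, between -1.39 and -1.24 in CHIP-/- sham hearts, between -0.41 and 0.25 in wild-type TAB hearts and between 0.30 and 0.43 in wild-type sham hearts, so that the genotypes did not overlap. Cardiomyocyte markers were well above background, 7 of 8 on all 16 arrays and Ryr2 on 12. Each of the 4 slides held 1 group, and in every comparison below an effect of the slide and an effect of the group cannot be told apart. The atrial gene Myl7 was high on 3 sham arrays (CHIP-/- sham 1 and wild-type sham 1 and 3). The Y-linked gene Ddx3y was well above background on 3 other sham arrays (CHIP-/- sham 2 and 4 and wild-type sham 4) and on no TAB array. The sexes may therefore not be balanced between TAB and sham groups or between genotypes, and the part of sex in the comparisons below was not tested. Scaling also matters here. With each array centred on its median in place of the loess fit, the median over all features moved to -0.22 in CHIP-/- TAB against CHIP-/- sham hearts and to -0.19 in wild-type TAB against wild-type sham hearts, and the split of calls moved to 694 higher and 4967 lower in CHIP-/- mice and to 382 higher and 3990 lower in wild-type mice. With the loess fit it was 2645 higher and 2557 lower in CHIP-/- mice and 2054 higher and 1885 lower in wild-type mice.

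The sequences around a transcript start of 4 members are shown because these genes stand for the different patterns described below: Cd36 and Fabp3 fell in CHIP-/- hearts and were not called in wild type, Rbp7 rose in wild type, and Pnpla2 fell in both genotypes. Each window holds 250 bases before to 50 bases after a start in the RefSeq table for GRCm38.p6, 5′ to 3′ on the strand of the gene, with matches to the searched letters in capitals. The Fabp3 and Pnpla2 windows lie at the outer end of the gene, whereas those of Cd36 and Rbp7 lie around a start inside the gene's span and not at its outer end.
Cd36, chr5:17835847-17836146, minus strand: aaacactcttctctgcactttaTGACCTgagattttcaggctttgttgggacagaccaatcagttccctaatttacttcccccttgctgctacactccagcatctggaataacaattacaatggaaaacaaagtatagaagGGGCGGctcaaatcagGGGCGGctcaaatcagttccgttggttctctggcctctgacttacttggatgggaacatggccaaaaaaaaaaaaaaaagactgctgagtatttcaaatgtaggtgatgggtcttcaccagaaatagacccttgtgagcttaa
Fabp3, chr4:130308488-130308787, plus strand: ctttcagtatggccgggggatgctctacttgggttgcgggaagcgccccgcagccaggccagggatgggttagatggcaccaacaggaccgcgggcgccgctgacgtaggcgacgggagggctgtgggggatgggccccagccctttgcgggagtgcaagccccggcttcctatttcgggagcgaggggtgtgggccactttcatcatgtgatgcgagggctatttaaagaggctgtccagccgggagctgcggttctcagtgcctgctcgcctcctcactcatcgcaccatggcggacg
Rbp7, chr4:149454919-149455218, minus strand: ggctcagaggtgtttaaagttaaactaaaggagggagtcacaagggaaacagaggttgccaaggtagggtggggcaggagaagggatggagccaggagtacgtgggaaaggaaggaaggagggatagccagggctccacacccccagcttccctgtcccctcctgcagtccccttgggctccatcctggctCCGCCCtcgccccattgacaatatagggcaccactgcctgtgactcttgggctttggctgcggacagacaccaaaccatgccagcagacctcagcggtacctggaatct
Pnpla2, chr7:141454938-141455237, plus strand: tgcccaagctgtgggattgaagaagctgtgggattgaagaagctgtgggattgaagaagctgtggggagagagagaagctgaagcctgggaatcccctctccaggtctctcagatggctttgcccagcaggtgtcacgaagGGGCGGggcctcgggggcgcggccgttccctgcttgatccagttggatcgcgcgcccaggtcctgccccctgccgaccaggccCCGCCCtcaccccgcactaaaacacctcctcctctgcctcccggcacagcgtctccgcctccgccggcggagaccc
Windows were found for 5 of the 10 members, 7 windows in all because Slc27a1 has 3. Both strands were searched for AGGTCA, the core site bound by nuclear receptors, for a direct repeat of AGGNCA with 1 base between the copies, the kind bound by PPAR and RXR, for CACGTG, the E-box, for GGGCGG, the GC box, and for TATAAA. The core site can lie within the direct repeat. The direct repeat was in none of the 7 member windows and in 0.38% of the 32851 mouse windows. AGGTCA was in the Cd36 window alone among the members, read on the minus strand as TGACCT, against 16.26% of all windows. GGGCGG was in the windows of Cd36, Rbp7, Pnpla2 and 2 of the 3 of Slc27a1, against 35.66% of all windows, and the Fabp3 window had none of the 5 motifs. CACGTG was in 1 Slc27a1 window, against 7.15% of all windows, and TATAAA was in no member window, against 13.62%. These matches describe letters in a window and say nothing of binding.

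After TAB, 8 of the 10 genes differed from sham in CHIP-/- hearts, 1 higher and 7 lower, and 7 differed in wild-type hearts, 2 higher and 5 lower (limma across all features, Benjamini-Hochberg adjusted p under 0.05). Calls were common in these comparisons: 47.3% of all features were called in CHIP-/- mice, 24% higher and 23.2% lower, and 35.8% in wild-type mice, 18.7% higher and 17.1% lower. The median difference over the members was -0.52 in CHIP-/- mice and -0.17 in wild-type mice, beside medians of -0.01 and 0.00 over all features. Slc27a1, Lpl, Dgat2, Pnpla2 and Ces1d fell in both genotypes, Fabp4 rose in both, Cd36 and Fabp3 fell in CHIP-/- mice, and Rbp7 rose in wild-type mice. The TAB and sham arrays did not overlap for 8 members in CHIP-/- mice and 7 in wild-type mice, against 42.6% and 31.9% of all features. With median centring 7 members were called in CHIP-/- mice, all lower, and 8 in wild-type mice, 2 higher and 6 lower. Under that scaling 694 of all 10998 features were called higher and 4967 lower in CHIP-/- mice. In wild-type mice 382 features were called higher and 3990 lower under it.

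**Figure D1:**
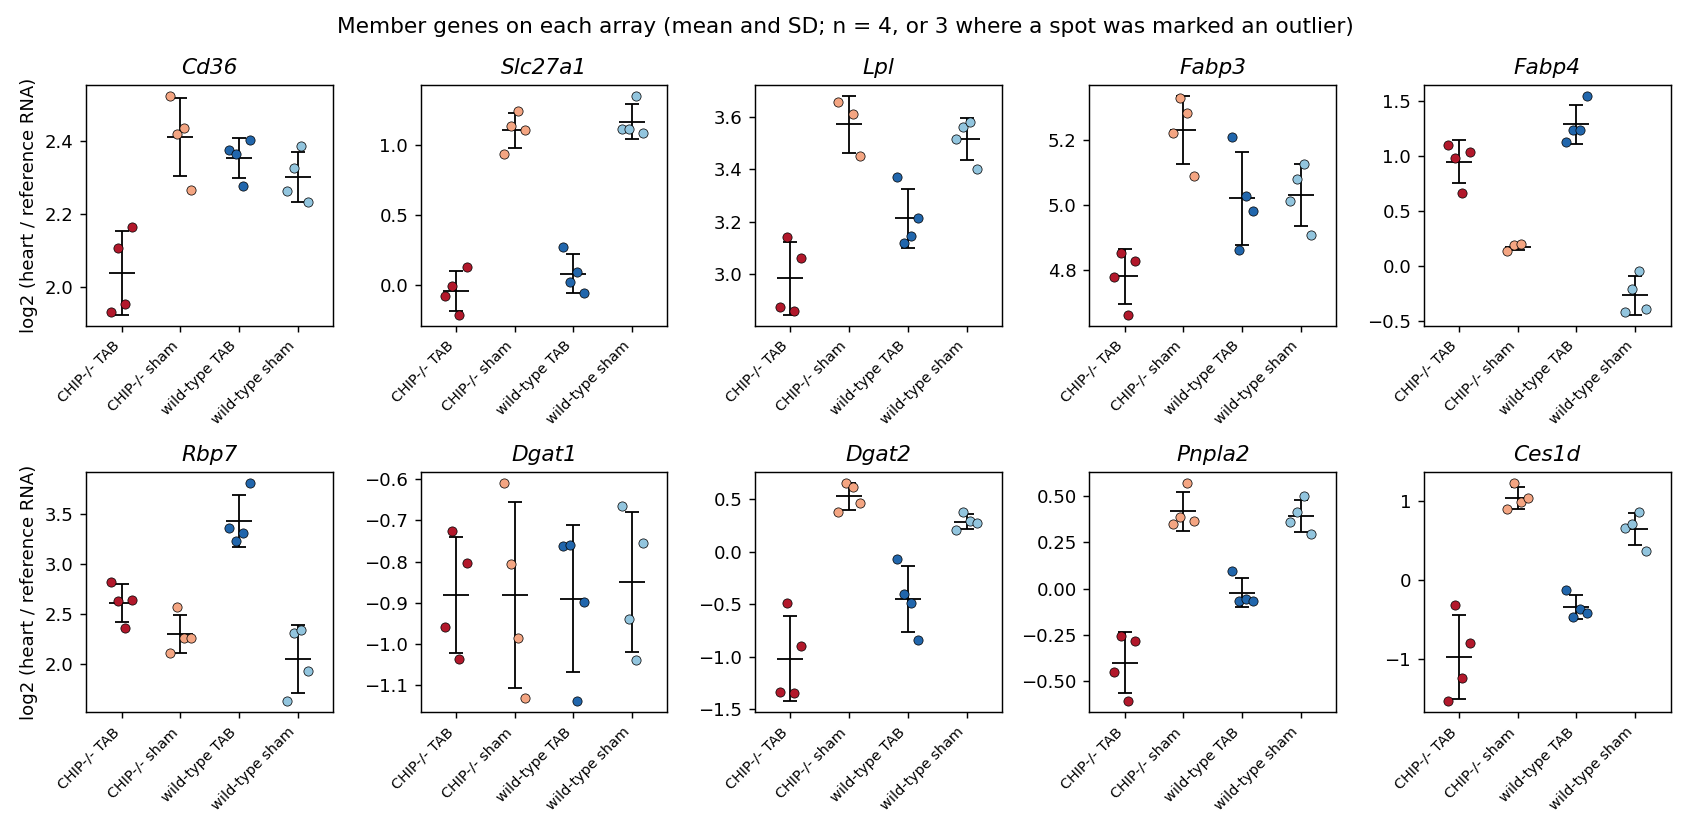
Log2 ratio of heart over reference RNA (y axis) of the brightest probe of each member on each array, by group, with the mean and SD as bars. CHIP-/- TAB arrays lie below CHIP-/- sham arrays for Cd36, Slc27a1, Lpl, Fabp3, Dgat2, Pnpla2 and Ces1d and above them for Fabp4, while wild-type TAB arrays lie above wild-type sham arrays for Fabp4 and Rbp7.

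The response to TAB itself differed between the genotypes for 7 of the 10 members, a test in which 5.46% of all features were called, 2.85% higher and 2.61% lower. All 7 were negative, meaning a larger fall or a smaller rise in CHIP-/- hearts: Cd36, Fabp3, Fabp4, Rbp7, Dgat2, Pnpla2 and Ces1d. The median over the members was -0.43, beside 0.00 over all features. This count depended on which arrays and scaling were used. Median centring left 4 (Fabp4, Rbp7, Dgat2 and Ces1d). Over all 10998 features it left 95 called positive and 79 negative, against 313 and 287 with the loess fit. Leaving out the 3 sham arrays with Ddx3y left 2 members (Cd36 and Fabp4), and calls over all features were not counted there. All 7 member differences stayed negative in both settings.

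**Figure D2:**
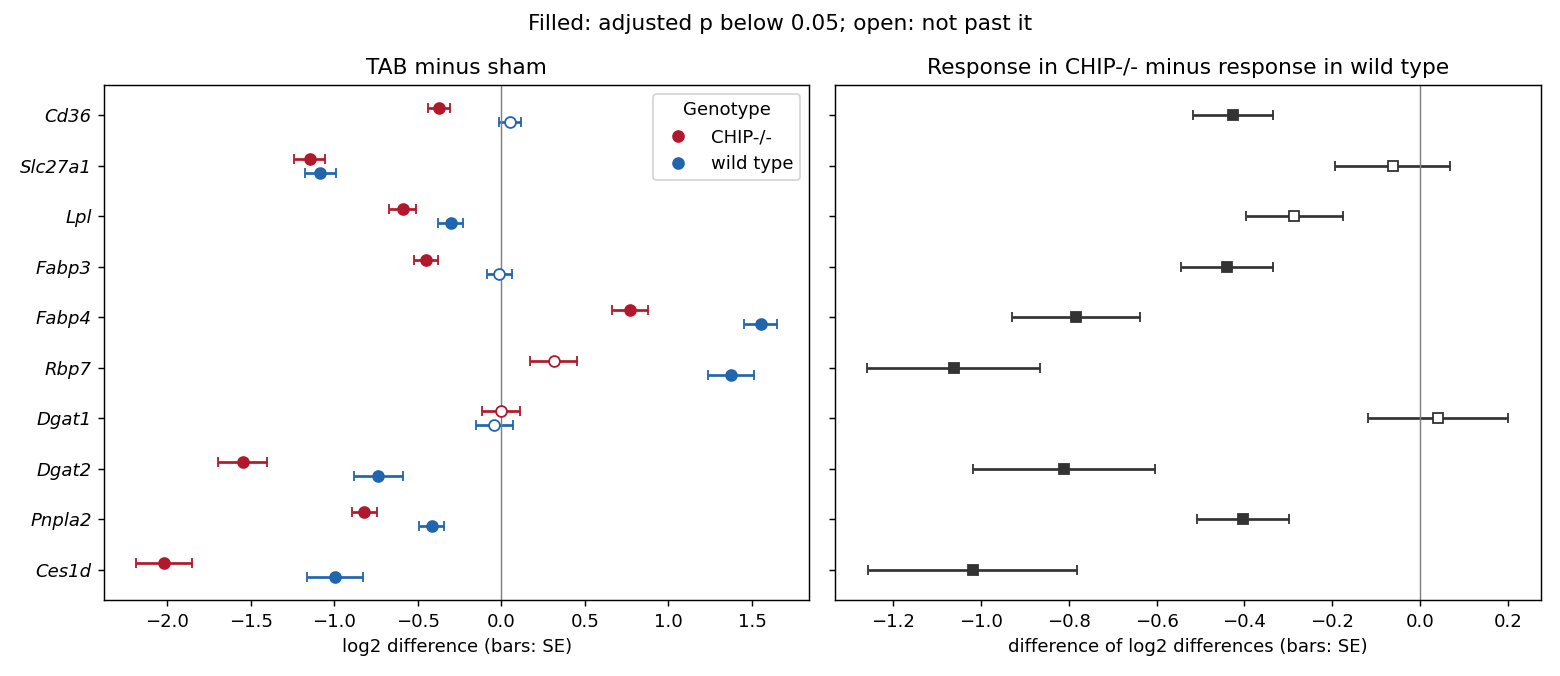
Left, log2 difference of TAB minus sham for each member in CHIP-/- (red) and wild-type (blue) hearts with its SE. Right, the CHIP-/- response less the wild-type one with its SE, which is past the test (filled) for 7 members and negative for each of them.

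Among the proteins at the cell surface and capillary wall, Cd36 (chromosome 5, 17781690 to 17888959, GRCm38.p6) encodes the main fatty acid translocase of cardiomyocytes and endothelium. Its ratio was 1.93, 2.11, 1.95 and 2.17 on the CHIP-/- TAB arrays, against 2.52, 2.42, 2.44 and 2.27 on the CHIP-/- sham arrays. It was 2.38, 2.36, 2.28 and 2.40 on the wild-type TAB arrays, against 2.26, 2.33, 2.39 and 2.23 on the wild-type sham arrays. All CHIP-/- TAB arrays were below every other array, and the wild-type groups overlapped. Cd36 fell by 0.37 in CHIP-/- mice (SE 0.065, adjusted p = 5.64e-05) and differed by 0.05 in wild-type mice (SE 0.065, adjusted p = 0.562), and the responses differed by -0.43 (SE 0.092, adjusted p = 0.00907). The second Cd36 probe gave -0.32 in CHIP-/- mice, 0.10 in wild-type mice and a difference of -0.42 between them (adjusted p = 0.0286). With median centring the fall in CHIP-/- mice was -0.81, the wild-type value turned to -0.30 (adjusted p = 0.0638), and the difference of -0.51 between the responses missed the threshold (adjusted p = 0.227).

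Slc27a1 (chromosome 8, 71568728 to 71587307) encodes fatty acid transport protein 1, an acyl-CoA synthetase of the cell membrane. Its single probe read -0.08, 0.00, -0.21 and 0.13 on the CHIP-/- TAB arrays, against 0.94, 1.14, 1.24 and 1.11 on the CHIP-/- sham arrays. Wild-type TAB arrays had 0.27, 0.02, 0.09 and -0.06, against 1.11, 1.11, 1.35 and 1.08 on wild-type sham arrays. TAB arrays were below all sham arrays in both genotypes and mixed with each other. It fell by 1.15 in CHIP-/- mice (SE 0.093, adjusted p = 1.39e-09) and by 1.08 in wild-type mice (SE 0.093, adjusted p = 1.62e-08). The responses differed by -0.06 (SE 0.13, adjusted p = 0.862), so no difference between genotypes was found for this member. Its heart signals after TAB were low, at 84.7 to 103 in CHIP-/- and 83.3 to 113 in wild-type mice. They were well above background on all TAB arrays, but the low signal limits how well the responses could be compared.

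Lpl (chromosome 8, 68880555 to 68906932) encodes lipoprotein lipase, which heart muscle makes and the capillary wall displays. Its brightest probe read 2.87, 3.14, 2.86 and 3.06 on CHIP-/- TAB arrays, against 3.66, 3.61 and 3.45 on 3 CHIP-/- sham arrays. The spot of CHIP-/- sham 2 carried an outlier mark and was left out of the fit. Wild-type TAB arrays had 3.37, 3.12, 3.15 and 3.22, against 3.52, 3.56, 3.58 and 3.40 on wild-type sham arrays. Lpl was lower after TAB with no overlap in either genotype, by 0.59 in CHIP-/- mice (SE 0.081, adjusted p = 3.31e-06) and by 0.30 in wild-type mice (SE 0.075, adjusted p = 0.00302), and the difference of -0.29 between the responses missed the threshold (SE 0.11, adjusted p = 0.147). The second probe gave -0.65 in CHIP-/- mice and -0.47 in wild-type mice. With median centring the falls were -1.30 in CHIP-/- mice and -0.85 in wild-type mice. Without the 3 sham arrays with high Myl7 the wild-type fall was -0.27 and its adjusted p 0.0506.

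Of the lipid-binding proteins of the cytosol, Fabp3 (chromosome 4, 130308738 to 130315463) is the form of heart and skeletal muscle cells. Its single probe read 4.78, 4.85, 4.66 and 4.83 on CHIP-/- TAB arrays, against 5.22, 5.33, 5.28 and 5.09 on CHIP-/- sham arrays. It read 5.21, 4.86, 5.03 and 4.98 on wild-type TAB arrays, against 5.01, 5.08, 5.13 and 4.91 on wild-type sham arrays, the first of which was saturated. The CHIP-/- groups were apart and the wild-type groups overlapped. Fabp3 fell by 0.45 in CHIP-/- mice (SE 0.074, adjusted p = 2.69e-05), differed by -0.01 in wild-type mice (SE 0.074, adjusted p = 0.928), and the responses differed by -0.44 (SE 0.10, adjusted p = 0.0152). Its wild-type value depended on the scaling: with median centring it fell by 0.55 there (adjusted p = 0.000571) and by 1.12 in CHIP-/- mice, and the difference of -0.57 between the responses missed the threshold (adjusted p = 0.127).

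Fabp4 (chromosome 3, 10204342 to 10208616), the binding protein of adipocytes, macrophages and capillary endothelium, moved the other way. Its brightest probe read 1.10, 0.98, 0.67 and 1.04 on CHIP-/- TAB arrays, against 0.14, 0.19 and 0.20 on 3 CHIP-/- sham arrays, the spot of CHIP-/- sham 4 carrying an outlier mark. It read 1.13, 1.24, 1.23 and 1.54 on wild-type TAB arrays, against -0.42, -0.21, -0.05 and -0.39 on wild-type sham arrays. TAB arrays were above sham arrays in both genotypes, and CHIP-/- TAB arrays were below all wild-type TAB arrays. Fabp4 rose by 0.77 in CHIP-/- mice (SE 0.11, adjusted p = 4.02e-06) and by 1.55 in wild-type mice (SE 0.099, adjusted p = 6.71e-10), and the rise was smaller in CHIP-/- mice by 0.78 (difference -0.78, SE 0.15, adjusted p = 0.00363). The rise in CHIP-/- mice rested on the loess fit: the unscaled heart signals overlapped, at 14800 to 19000 in CHIP-/- TAB and 15628 to 17253 in CHIP-/- sham hearts with the marked spot included, and with median centring the difference was 0.14 (adjusted p = 0.400). In wild-type mice the signals were 19260 to 27338 after TAB and 11542 to 14670 after sham, and the rise was 0.99 with median centring.

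The other Fabp4 probes lacked 2 values each and were not tested. A bright probe averaged 1.06 in CHIP-/- TAB, 0.31 in CHIP-/- sham, 1.30 in wild-type TAB (n = 2) and -0.03 in wild-type sham hearts. A dim probe averaged -0.04 in CHIP-/- TAB, -0.31 in CHIP-/- sham (n = 2), 0.36 in wild-type TAB and -0.76 in wild-type sham hearts. Both had their lowest mean in wild-type sham and their highest in wild-type TAB hearts.

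Rbp7 (chromosome 4, 149449687 to 149466462) encodes a retinol-binding relative of the fatty acid binding proteins, found in adipose tissue and capillary endothelium. Its brightest probe read 2.82, 2.63, 2.36 and 2.64 on CHIP-/- TAB arrays, against 2.12, 2.57, 2.26 and 2.26 on CHIP-/- sham arrays. It read 3.36, 3.23, 3.31 and 3.81 on wild-type TAB arrays, against 1.63, 2.31, 2.34 and 1.93 on wild-type sham arrays. The wild-type TAB arrays were above all others, and the CHIP-/- groups overlapped. Rbp7 rose by 1.37 in wild-type mice (SE 0.14, adjusted p = 1.29e-07), differed by 0.31 in CHIP-/- mice (SE 0.14, adjusted p = 0.0686), and the responses differed by -1.06 (SE 0.20, adjusted p = 0.00307). The second probe gave 1.13 in wild-type mice, 0.26 in CHIP-/- mice and -0.87 between them (adjusted p = 0.0102). The CHIP-/- value was -0.11 with median centring (adjusted p = 0.507), and with only its own groups in the fit it was called (adjusted p = 0.0100). Without the 3 sham arrays with Ddx3y the difference between the responses was -0.91 (adjusted p = 0.0648).

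**Figure D3:**
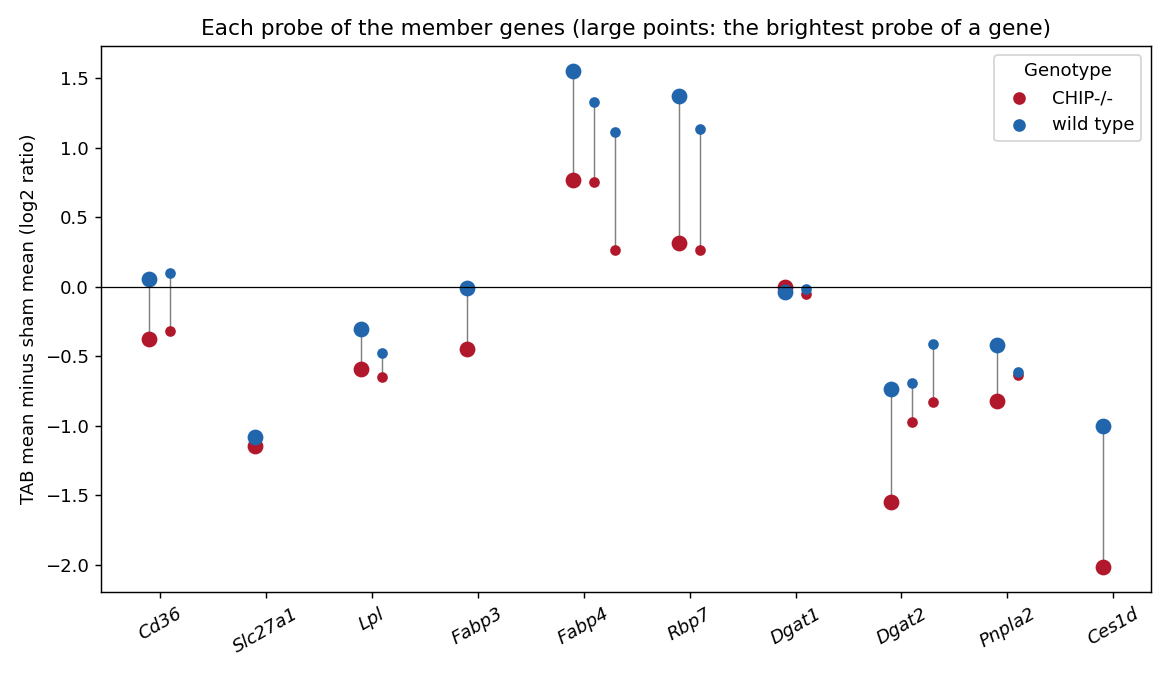
TAB mean minus sham mean of the log2 ratio (y axis) for every probe of the 10 members, red for CHIP-/- and blue for wild type, joined by a line, with the brightest probe of a gene drawn large. The probes of Cd36 and of Rbp7 show a similar gap between the genotypes, while the probes of Dgat2 and Pnpla2 differ in how far apart the genotypes lie.

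Fabp4 and Rbp7 are known from capillary endothelium as well as from fat, and the markers of these cell types moved too. In bulk tissue fewer cells of a type and less RNA per cell cannot be told apart. Of all features 24% were called higher and 23.2% lower after TAB in CHIP-/- mice, and 18.7% higher and 17.1% lower in wild-type mice. The response differed between genotypes for 5.46% of all features. With median centring 694 of all 10998 features were called higher and 4967 lower in CHIP-/- mice. In wild-type mice 382 features were called higher and 3990 lower under it. The difference between the responses was called positive for 95 features and negative for 79 under that scaling. Of 12 endothelial markers, 4 rose and 1 fell in CHIP-/- mice and 9 rose and 1 fell in wild-type mice, with a median of 0.10 in CHIP-/- and 0.42 in wild-type mice. Their mean ratio per array lay between 0.68 and 0.85 in CHIP-/- TAB, 0.56 and 0.67 in CHIP-/- sham, 0.76 and 1.07 in wild-type TAB, and 0.59 and 0.69 in wild-type sham hearts. The response differed between genotypes for 2 of the 12, Kdr by -0.54 and Egfl7 by -0.38, and for none with median centring, under which 4 fell and none rose in CHIP-/- mice, and 1 rose and 1 fell in wild-type mice. Of 10 adipocyte markers 7 were tested, of which 5 rose in CHIP-/- and 3 in wild-type mice, none with a difference between genotypes. With median centring 1 rose and 2 fell in CHIP-/- mice and 1 fell in wild-type mice. The adipocyte genes Retn, Lep and Adrb3 were well above background on no array. The adipocyte mean lay between -2.22 and -1.93 in CHIP-/- TAB, -2.45 and -2.30 in CHIP-/- sham, -2.15 and -1.99 in wild-type TAB, and -2.41 and -2.24 in wild-type sham hearts. All 8 macrophage markers rose in CHIP-/- mice and 6 in wild-type mice, and the response was larger in CHIP-/- mice for 3 of them (Adgre1 by 0.73, Lyz2 by 0.70 and Csf1r by 0.51). With median centring 5 rose in CHIP-/- mice, 2 rose and 1 fell in wild-type mice, and the response differed for 1. Their mean ratio was 0.50 to 0.71 in CHIP-/- TAB, -0.24 to -0.09 in CHIP-/- sham, 0.24 to 0.35 in wild-type TAB, and -0.12 to 0.03 in wild-type sham hearts. Of 8 fibroblast markers 5 rose in CHIP-/- mice and 4 in wild-type mice, and with median centring 3 rose in CHIP-/- mice and 1 rose and 1 fell in wild-type mice. The response differed between genotypes for 3 of these 8, all positive, and for 2 with median centring. The part of these cells in the Fabp4 and Rbp7 values was not tested.

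The acyltransferases that finish triglyceride synthesis behaved differently from each other. Dgat1 (chromosome 15, 76502012 to 76512021) was not called in any comparison: its brightest probe averaged -0.88 ± 0.14 in CHIP-/- TAB, -0.88 ± 0.23 in CHIP-/- sham, -0.89 ± 0.18 in wild-type TAB and -0.85 ± 0.17 in wild-type sham hearts (SD, n = 4 each). The TAB difference was 0.00 (SE 0.11, adjusted p = 0.998) in CHIP-/- mice and -0.04 (SE 0.11, adjusted p = 0.812) in wild-type mice. Its heart signals were low, at most 75.7 in CHIP-/- TAB and 129 in wild-type sham hearts, which limits what could be seen, and the second probe was well above background on 6 of 16 arrays.

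Dgat2 (chromosome 7, 99153663 to 99182713) fell in both genotypes. Its brightest probe read -1.34, -0.49, -1.35 and -0.90 on CHIP-/- TAB arrays, against 0.38, 0.66, 0.61 and 0.47 on CHIP-/- sham arrays. It read -0.07, -0.40, -0.49 and -0.84 on wild-type TAB arrays, against 0.21, 0.38, 0.29 and 0.27 on wild-type sham arrays. Every TAB array was below every sham array, TAB arrays spread more widely than sham arrays, and the TAB groups of the genotypes overlapped. The fall was 1.55 in CHIP-/- mice (difference -1.55, SE 0.15, adjusted p = 1.40e-08), a ratio of 2.92-fold, and 0.74 in wild-type mice (difference -0.74, SE 0.15, adjusted p = 0.000420). The difference of -0.81 between them (SE 0.21, adjusted p = 0.0234) was seen on the brightest probe only: the others gave -0.28 (adjusted p = 0.486) and -0.42 (adjusted p = 0.127), while both fell in both genotypes. The probe that gave -0.42 was dim, at 64 to 81.4 in CHIP-/- TAB hearts over a background of 41 to 45. It was well above background on 3 of those 4 arrays, which limits what it could show. With the mean of all probes the genotype difference was -0.50 (adjusted p = 0.118). It also missed the threshold without either of CHIP-/- TAB 1 and 3, CHIP-/- sham 2 or wild-type TAB 1 (-0.99 to -0.68 over single arrays left out, highest adjusted p = 0.0634), without the 3 arrays with high Myl7 (-0.82, adjusted p = 0.0752) and without the 3 with Ddx3y (-0.77, adjusted p = 0.165). The wild-type fall was 1.19 with median centring.

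Of the lipases, Pnpla2 (chromosome 7, 141455188 to 141460743) encodes adipose triglyceride lipase, which takes the first fatty acid off stored triglyceride. Its brightest probe read -0.45, -0.26, -0.61 and -0.29 on CHIP-/- TAB arrays, against 0.35, 0.38, 0.57 and 0.37 on CHIP-/- sham arrays. It read 0.09, -0.06, -0.06 and -0.07 on wild-type TAB arrays, against 0.36, 0.42, 0.50 and 0.29 on wild-type sham arrays. The groups after TAB were apart from the sham groups and from each other. Pnpla2 fell by 0.82 in CHIP-/- mice (SE 0.074, adjusted p = 6.52e-09) and by 0.42 in wild-type mice (SE 0.074, adjusted p = 0.000122), with a difference of -0.40 (SE 0.10, adjusted p = 0.0245). The second probe fell by 0.63 in CHIP-/- and by 0.61 in wild-type mice and gave -0.02 between them (adjusted p = 0.971), so the probes disagree on the genotype difference and agree on both falls. With the mean of both probes the difference was -0.21 (adjusted p = 0.362), and with Feature Extraction's processed intensities -0.35 (adjusted p = 0.0712). Leaving out 1 array gave -0.45 to -0.33, past the threshold except without CHIP-/- TAB 1 or 3, CHIP-/- sham 3, wild-type TAB 1 or wild-type sham 4 (highest adjusted p = 0.0636). With median centring the falls were -1.30 in CHIP-/- mice and -0.82 in wild-type mice.

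Ces1d (chromosome 8, 93166072 to 93197804) encodes a carboxylesterase that hydrolyses triglyceride, also called triacylglycerol hydrolase. In the heart channel its single probe was well above background on 3 of 4 CHIP-/- TAB arrays and on all 4 arrays of each other group. The signal was 65, 123, 74 and 95 on CHIP-/- TAB arrays, the first of them not well above background, against 400 to 509 on CHIP-/- sham arrays. It was 125 to 153 on wild-type TAB arrays, against 255 to 432 on wild-type sham arrays. The log2 ratio was -1.54, -0.32, -1.24 and -0.80 on CHIP-/- TAB arrays, against 0.90, 1.24, 0.99 and 1.04 on CHIP-/- sham arrays. It was -0.13, -0.47, -0.37 and -0.42 on wild-type TAB arrays, against 0.65, 0.72, 0.86 and 0.37 on wild-type sham arrays. TAB arrays were below sham arrays in both genotypes, and CHIP-/- TAB 2 lay within the wild-type TAB range.

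**Figure D4:**
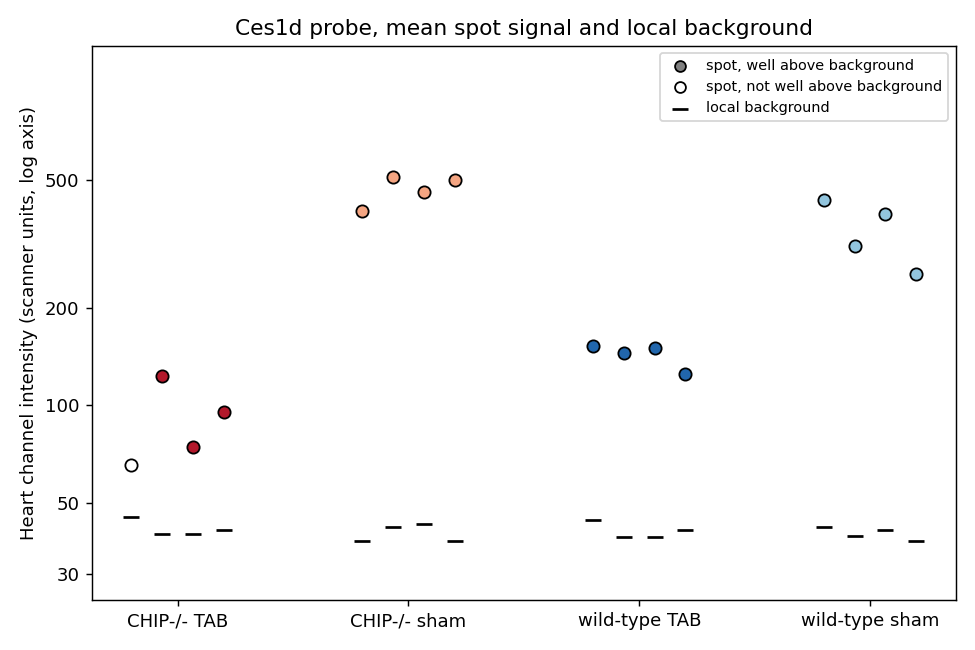
Mean heart channel signal of the Ces1d spot on each array (points, log axis) with its local background (dashes), by group. The CHIP-/- TAB signals of 65 to 123 are the closest to background, and the open point is the array on which the spot was not well above it.

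Ces1d fell by 2.02 in CHIP-/- mice (SE 0.17, adjusted p = 2.03e-09), a ratio of 4.05-fold with 3 of the 4 CHIP-/- TAB spots well above background, and by 1.00 in wild-type mice (SE 0.17, adjusted p = 7.00e-05), and the responses differed by -1.02 (SE 0.24, adjusted p = 0.0134). With Feature Extraction's processed intensities the fall in CHIP-/- mice was 7.98-fold, and the gap between the responses was -1.77 (adjusted p = 0.0441). The cause was not tested. Without the 3 sham arrays with Ddx3y it was -0.83 (adjusted p = 0.170).

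Cardiomyocyte markers, the cell type in which most of the falling members are known to act, moved as well. Of 8 listed, 6 were tested, and 1 rose and 4 fell after TAB in CHIP-/- mice and 1 rose and 3 fell in wild-type mice. Of all features 23.2% were called lower in CHIP-/- mice and 17.1% in wild-type mice. With median centring 4967 of all 10998 features were called lower in CHIP-/- mice and 3990 in wild-type mice. Under it all 6 markers fell in CHIP-/- mice and 5 fell in wild-type mice, and none rose. Their mean ratio per array lay between 3.25 and 3.39 in CHIP-/- TAB, 3.57 and 3.66 in CHIP-/- sham, 3.43 and 3.73 in wild-type TAB, and 3.56 and 3.72 in wild-type sham hearts. The response differed between the genotypes for none of the 6. Their part in the falls of Cd36, Fabp3, Lpl, Pnpla2 and Ces1d was not tested.

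Set against wild-type TAB hearts, 8 of the 10 members were lower in CHIP-/- TAB hearts and none was higher, where 11.6% of all features were called, 5.3% higher and 6.34% lower. The exceptions were Slc27a1 (-0.12, adjusted p = 0.462) and Dgat1 (0.01, adjusted p = 0.977). Rbp7 differed most, by -0.82 (SE 0.14, adjusted p = 0.000439), followed by Ces1d at -0.63 (SE 0.17, adjusted p = 0.0158) and Dgat2 at -0.57 (SE 0.15, adjusted p = 0.0126). Pnpla2 differed by -0.38 (adjusted p = 0.00142), Fabp4 by -0.34 (adjusted p = 0.0278), Cd36 by -0.32 (adjusted p = 0.00233), Fabp3 by -0.24 (adjusted p = 0.0365) and Lpl by -0.23 (adjusted p = 0.0496). The groups did not overlap for 5 of them, against 13% of all features. Several of these were close to the threshold. The count was 3 without CHIP-/- TAB 3, and 4 without CHIP-/- TAB 1 or wild-type TAB 1, with median centring or with only these groups in the fit, whereas the Rbp7 difference passed in all 30 alternatives and the Lpl difference in 10 of them. The median over the members was -0.33, beside -0.01 over all features. The additional probes of Dgat2 (-0.26 and -0.27) and Pnpla2 (-0.16) missed the threshold, those of Cd36 (-0.26), Lpl (-0.21) and Rbp7 (-0.77) passed it. The Ces1d difference was -1.32 with Feature Extraction's processed intensities. Cell type markers moved in the same comparison: 1 cardiomyocyte marker was higher and 3 of 6 were lower in CHIP-/- TAB hearts (Myl3 by 0.55 and Myh6 by 0.42 among them), 3 of 12 endothelial markers were lower, 4 of 8 macrophage markers and 1 of 8 fibroblast markers were higher, and none of 7 adipocyte markers was called. With median centring 245 of all 10998 features were called higher and 191 lower in this comparison. Under it 2 cardiomyocyte and 2 endothelial markers were lower and 3 macrophage markers were higher. Their part in the members' differences was not tested.

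Between CHIP-/- sham and wild-type sham hearts no member was called, where 0.0273% of all features, 3 in number, were called by limma, 0.00909% higher and 0.0182% lower, and 883 had an unadjusted p under 0.05. Among the members the unadjusted p was 0.000450 for Fabp4, 0.0128 for Fabp3 and 0.0296 for Ces1d. The groups did not overlap for Fabp4, Dgat2 and Ces1d, against 5.37% of all features. Fabp4 averaged 0.18 ± 0.034 in CHIP-/- sham hearts (SD, n = 3) and -0.27 ± 0.18 in wild-type sham hearts (SD, n = 4), a difference of 0.44 (SE 0.11, adjusted p = 0.138). It passed with only the sham groups in the fit (adjusted p = 0.0331) and with the mean of its probes (0.47, adjusted p = 0.0289). That mean averaged different probes on different arrays. The dim probe, which had the lowest ratios, was missing on CHIP-/- sham 1 and 4 and on no wild-type sham array. The mean of the probes therefore cannot decide whether the sham groups differ. Ces1d differed by 0.39 (SE 0.17, adjusted p = 0.543) and Dgat2 by 0.24 (SE 0.15, adjusted p = 0.753).

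Other genes of the uptake route came from a list of 24, of which 16 could be tested. In CHIP-/- mice 8 rose and 3 fell after TAB, and in wild-type mice 8 rose and 3 fell, with medians of 0.18 in CHIP-/- and 0.19 in wild-type mice. Of all features 24% were called higher and 23.2% lower in CHIP-/- mice, and 18.7% higher and 17.1% lower in wild-type mice. With median centring 1 rose and 4 fell in CHIP-/- mice and 5 rose and 5 fell in wild-type mice. Under that scaling 694 of all 10998 features were called higher and 4967 lower in CHIP-/- mice. In wild-type mice 382 features were called higher and 3990 lower under it. Gpihbp1, which anchors lipoprotein lipase in the capillary, averaged 1.71 in CHIP-/- TAB, 1.64 in CHIP-/- sham, 2.36 in wild-type TAB and 1.55 in wild-type sham hearts. It rose by 0.80 in wild-type mice (SE 0.075, adjusted p = 5.06e-08), and the response in CHIP-/- mice was lower by 0.73 (difference -0.73, SE 0.11, adjusted p = 0.000606). Tcf15, with Meox2 a transcription factor of heart capillary endothelium that drives Cd36 and Lpl there in mice, showed the same arrangement, at 1.66 in CHIP-/- TAB, 1.70 in CHIP-/- sham, 2.22 in wild-type TAB and 1.43 in wild-type sham hearts, with a difference of -0.83 between the responses (SE 0.14, adjusted p = 0.00172).

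Cav1, the coat protein of caveolae, rose by 0.59 in CHIP-/- mice and by 1.07 in wild-type mice, the difference of -0.48 (adjusted p = 0.0261) being called on its brightest probe and not on the other (-0.34, adjusted p = 0.221), which read 0.05 in CHIP-/- mice (adjusted p = 0.712). With median centring the CHIP-/- rise was 0.03 and not called. Angptl4, an inhibitor of lipoprotein lipase, rose in both genotypes, by 0.79 in CHIP-/- mice and by 0.73 in wild-type mice. The lipoprotein receptor gene Vldlr fell by 0.72 in CHIP-/- mice and by 0.57 in wild-type mice, Got2, the mitochondrial aspartate transaminase also described as a membrane fatty acid binding protein, by 0.79 in CHIP-/- and 0.46 in wild-type mice, and Lmf1, needed to mature lipoprotein lipase, by 0.25 in CHIP-/- and 0.29 in wild-type mice. Apoe was the 1 gene of the list called with a positive difference between the responses, 0.45 (adjusted p = 0.00672), and 5 were called negative. Of all features 2.85% were called positive and 2.61% negative. With median centring 2 genes of the list were called negative, and Apoe read 0.35 (adjusted p = 0.610). Of all 10998 features 95 were called positive and 79 negative under that scaling.

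Of 38 listed genes of triglyceride synthesis, lipid droplets and lipolysis, 26 could be tested. In CHIP-/- mice 7 rose and 8 fell after TAB, and in wild-type mice 3 rose and 6 fell, with medians of 0.03 in CHIP-/- and -0.02 in wild-type mice. Of all features 24% were called higher and 23.2% lower in CHIP-/- mice, and 18.7% higher and 17.1% lower in wild-type mice. With median centring 694 of all 10998 features were called higher and 4967 lower in CHIP-/- mice. In wild-type mice 382 features were called higher and 3990 lower under it. Of the 26 listed genes, 1 rose and 12 fell in CHIP-/- mice under it, and 1 rose and 15 fell in wild-type mice. After TAB 1 was higher and 8 were lower in CHIP-/- than in wild-type hearts, where 5.3% of all features were higher and 6.34% lower, and the responses differed for 4, all negative, where 2.61% of all features were negative. The list's medians had the opposite sign, at 0.03 both after TAB and for the response. Median centring left 0 higher and 5 lower after TAB, with a median of 0.02, and 2 for the response, with a median of -0.02. Over all 10998 features it left 245 higher and 191 lower after TAB, and 79 negative for the response. Plin5, a perilipin that coats droplets in oxidative tissue and binds Pnpla2, averaged 0.33 in CHIP-/- TAB, 1.18 in CHIP-/- sham, 1.04 in wild-type TAB and 1.20 in wild-type sham hearts. It fell by 0.85 in CHIP-/- mice (SE 0.10, adjusted p = 5.07e-07) and differed by -0.15 in wild-type mice (adjusted p = 0.263), and the responses differed by -0.70 (SE 0.15, adjusted p = 0.00762). Plin4, another perilipin, fell by 0.81 in CHIP-/- mice, with -0.24 in wild-type mice (adjusted p = 0.112), and differed by -0.57 between the responses (adjusted p = 0.0403), a call that median centring ended (-0.65, adjusted p = 0.0832). With median centring both perilipins were also called lower in wild-type mice, Plin5 by 0.53 and Plin4 by 0.59.

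Fitm1 and Fitm2, proteins of the endoplasmic reticulum that help droplets form, both fell in both genotypes: Fitm1 by 1.17 in CHIP-/- and 0.65 in wild-type mice, and Fitm2 by 0.97 in CHIP-/- and 0.62 in wild-type mice. Lpin1, a phosphatidate phosphatase, fell by 0.70 in CHIP-/- mice (adjusted p = 3.19e-08) and by 0.40 in wild-type mice (adjusted p = 0.000104), and the difference of -0.30 between the responses missed the threshold (adjusted p = 0.0882). Mgll, monoglyceride lipase, the last lipase of the chain, rose by 0.74 in wild-type mice (SE 0.069, adjusted p = 5.43e-08) and averaged 1.49 in CHIP-/- TAB, 1.38 in CHIP-/- sham, 1.96 in wild-type TAB and 1.23 in wild-type sham hearts, a difference of -0.62 between the responses (SE 0.098, adjusted p = 0.000871). Agpat4, an acyltransferase of the earlier steps, rose by 0.83 in CHIP-/- mice and by 0.49 in wild-type mice, and with median centring the wild-type value was 0.17 and not called. Cidec, a droplet gene of fat that is also an adipocyte marker, rose by 0.36 in CHIP-/- mice and by 0.42 in wild-type mice, and neither rise was called with median centring. Plin1, another adipocyte marker, was called higher after TAB in CHIP-/- mice, but its spot was well above background on 2 of 4 CHIP-/- TAB arrays and on no CHIP-/- sham array, so no fold is given, and the call was lost with median centring.

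**Figure D5:**
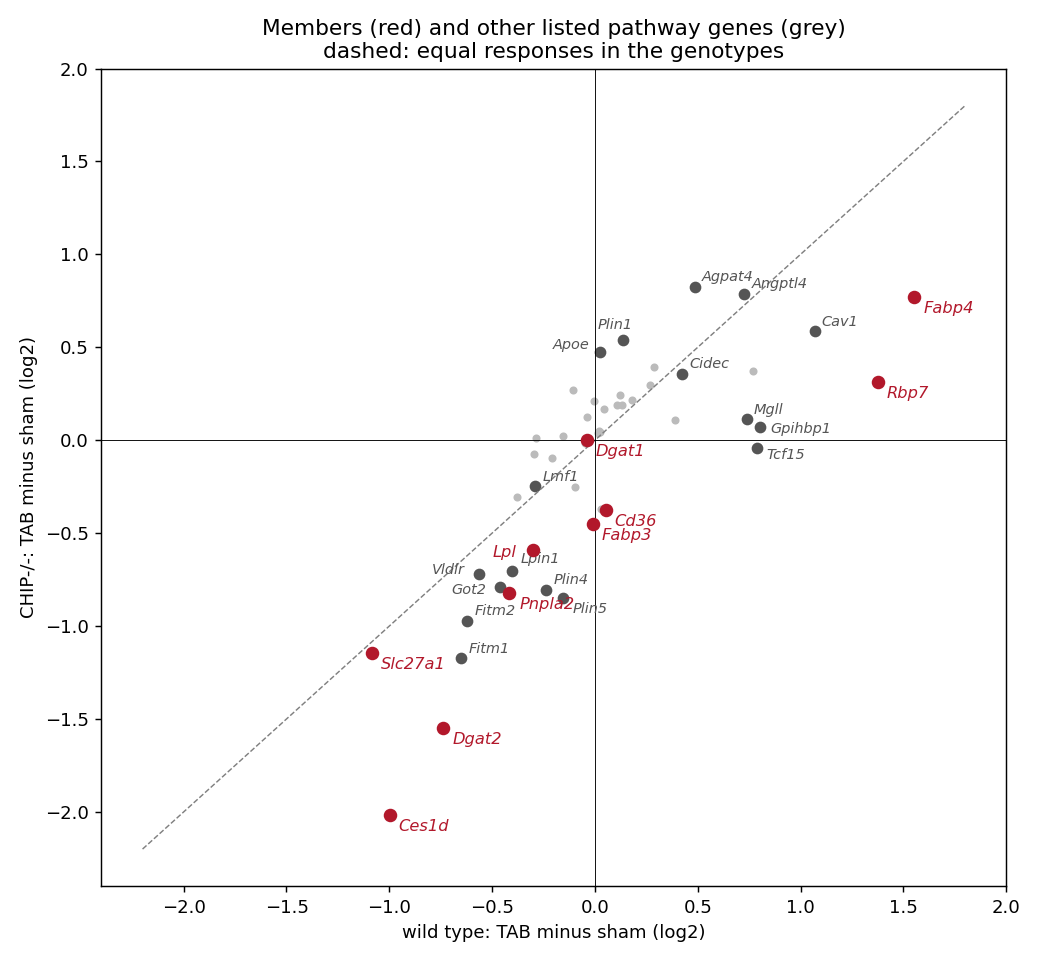
TAB minus sham log2 difference in CHIP-/- hearts (y axis) against that in wild-type hearts (x axis) for the members (red) and the listed genes of the uptake and triglyceride routes that are reported here (grey, named ones darker), with equal responses on the dashed line. Of the 10 members 9 lie below the line, meaning a lower TAB minus sham difference in CHIP-/- than in wild-type hearts, with Ces1d, Dgat2, Rbp7 and Fabp4 farthest from it.

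The genes whose pattern over the 16 arrays was nearest were taken for the 3 members with the widest spread of group means, by the root mean square difference of centred log2 ratios. For Ces1d they were Ift81 (0.20), Hrc (0.23), which binds calcium in the sarcoplasmic reticulum, and Dgat2 (0.25), where the median over all other features with a gene symbol was 0.85. For Dgat2 they were the mitochondrial fatty acid oxidation genes Ech1 (0.14), Acadm (0.16) and Acaa2 (0.16), against a median of 0.67. For Fabp4 they were Ctla2a (0.20), Ctla2b (0.23) and Cdc20 (0.25), against a median of 0.66. Ctla2a and Ctla2b are close copies that a probe may not tell apart.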

How the data were processed

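Heart ventricle RNA of 16 mice was hybridised against a common reference on two-colour Agilent arrays of pattern 014868, quantified with Feature Extraction 9.1.3.1 per the file headers. The deposited scanner files give linear intensities of spots and local background, Feature Extraction's processed intensities and a log10 ratio, and a deposited table of the series holds log2 ratios for 14322 probes, chosen in a way that the labels and headers do not state. Its columns correlated at 0.998 or more with the log ratios of their own arrays after centring each probe, so it runs as heart over reference, and had medians from -0.03 to 0.03. The 4 CHIP-/- TAB files hold signals saved with 3 significant digits.

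Mean intensities were corrected with limma 3.58.1 (R 4.3.3; normexp, offset 50) and log2 ratios normalized by loess within arrays, control spots at weight 0. Spots with an outlier mark were left out. Of 41174 probes, 14908 passed a filter on dim probes (heart signal well above background on 4 or more arrays). The brightest probe stood for a gene, with values on at least 15 arrays, which left 10998 features. Probes were named through RefSeq GRCm38.p6 by accession (22951), symbol (6659) or synonym (3109), and 8455 kept the file's name. limma fitted the 4 groups over all 16 arrays with an intensity trend, and p-values were Benjamini-Hochberg adjusted over all features, at a threshold of 0.05. The code was tested on simulated data. The number of arrays limits the precision, and p-values measure the spread between these biological replicates. Same-numbered samples of different groups were checked for pairing: their deviations correlated between -0.19 and 0.19, with 3 of 24 above 0.1, so the numbers do not pair them. Alternatives covered background correction, scaling, probe filter, probe choice, the deposited table, the trend, the groups fitted, a replicate block and arrays left out. All members are named with every probe; listed pathway genes are named where they had 1 of the 3 largest rises or falls called in a comparison, except 1 that is not reported here. Members and lists were chosen with earlier results of these data known.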

Additional observations from a re-analysis of the deposited data

Results flagged for a closer look

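For 3 of 38 member probes and groups with 4 values, 1 array stood apart from the others of its group by a gap, relative to the group's range, above Dixon's 95% critical value for 4 samples. Chance gives about 1 such group in 20. Slc27a1 read 1.35 on wild-type sham 3, above the other wild-type sham arrays. Pnpla2 read 0.573 on CHIP-/- sham 3, above the other CHIP-/- sham arrays, and 0.094 on wild-type TAB 1, above the other wild-type TAB arrays. The genotype difference in the Pnpla2 response missed the threshold without either of these Pnpla2 arrays.

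The response to TAB differed between CHIP-/- and wild-type hearts by the interaction test for 7 members: Cd36 by -0.43, Fabp3 by -0.44, Fabp4 by -0.78, Rbp7 by -1.06, Dgat2 by -0.81, Pnpla2 by -0.40 and Ces1d by -1.02. Of all features 5.46% were called in this test. The count of members was 4 with median centring and 2 without the 3 sham arrays with Ddx3y. The Dgat2 and Pnpla2 differences were called on the brightest probe alone.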

How the results depend on the processing

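Of 149 recomputed counts of called members, 138 stayed within 1.5 times the reported count. After TAB, the count of members lower in CHIP-/- than in wild-type hearts was 4 with median centring, 5 without the filter on dim probes, 5 without the intensity trend, 4 with only these groups in the fit, and 3 to 8 with single arrays left out. The count of members whose response differed was 4 with median centring and 2 without the 3 sham arrays with Y-linked transcripts. With median centring 191 of all 10998 features were lower in CHIP-/- than in wild-type TAB hearts. The difference between the responses was then called negative for 79 features. Between sham groups 1 member, Fabp4, was called with the mean of all probes, which rested on different probes on different arrays, and with only these groups in the fit. With the replicate number as a block the counts were 8 in CHIP-/- mice, 7 in wild-type mice, 6 after TAB, 0 in sham hearts and 7 for the response. The cause of these changes was not tested.

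Of 1490 recomputed member differences, 45 changed sign, none past the threshold in either setting. Median centring gave Rbp7 -0.11 and Dgat1 -0.19 in CHIP-/- mice, Cd36 -0.30 in wild-type mice, and Slc27a1 0.0066 and Dgat1 0.011 between sham groups. Processed intensities and the deposited table both gave Dgat1 -0.30 in CHIP-/- mice, -0.22 after TAB and -0.10 for the response. No background correction gave Dgat1 -0.041 after TAB. The mean of all probes gave Dgat1 -0.024 in CHIP-/- mice, and Lpl -0.13, Dgat1 0.038 and Pnpla2 -0.056 between sham groups. For Lpl, that mean was the dimmer, lower-reading probe alone on CHIP-/- sham 2 (2.49), where the spot of the brightest probe carried an outlier mark. The Lpl value of -0.13 therefore compares unlike sets of probes. Without the arrays with high Myl7, Fabp3 was 0.027 in wild-type mice and Slc27a1 0.064 between sham groups. Without the arrays with Y-linked transcripts, Dgat1 was -0.085 in CHIP-/- mice, 0.084 between sham groups and -0.076 for the response. Leaving out single arrays, Dgat1 ran over -0.082 to 0.092 in CHIP-/- mice, -0.10 to 0.043 in wild-type mice, -0.075 to 0.060 after TAB, -0.12 to 0.050 between sham groups and -0.042 to 0.13 for the response. Fabp3 ran over -0.074 to 0.042 in wild-type mice, Slc27a1 over -0.10 to 0.0017 and Pnpla2 over -0.026 to 0.062 between sham groups, and the Slc27a1 response over -0.12 to 0.0014. The cause was not tested. Low signal over background limits the Dgat1 values, the CHIP-/- TAB Ces1d values and the Slc27a1 values after TAB in both genotypes.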
